A study of Mus musculus with 8 samples.

Results

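A set of 7 surface proteins with which an antigen-presenting cell tunes T cells were followed at the level of mRNA in cultured mouse macrophages given disulfiram (DSF), lipopolysaccharide (LPS) or both. The genes were taken by symbol: Cd40, Cd80, Cd86, Icosl, Tnfsf9, Cd274 and Pdcd1lg2, which are 7 of the 55414 genes in the count table. Their identifiers there are ENSMUSG00000017652.17, ENSMUSG00000075122.6, ENSMUSG00000022901.14, ENSMUSG00000000732.10, ENSMUSG00000035678.9, ENSMUSG00000016496.8 and ENSMUSG00000016498.11, in the same order. All 8 libraries came from iBMDM cells, an immortalized wild-type line of macrophages derived from bone marrow, and each of the 4 groups had 2 libraries. The DSF+LPS group received 5 μM DSF for 0.5 h and then 1 μg/ml LPS for 4 h. The LPS group received the solvent DMSO in place of the drug and then the same LPS. The DSF group received the drug and then water, and the control group received DMSO and then water. LPS, a component of the outer membrane of Gram-negative bacteria, is sensed by TLR4 and its co-receptor MD-2, the product of Ly96. DSF, in clinical use against alcohol dependence, is the drug under test, and the study asked whether it inhibits the response of TLR4 to LPS. A single immortalized line in culture limits what these libraries can say about macrophages in tissue.

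A T cell that meets its antigen needs additional signals from the cell that presents it. CD80 and CD86, the B7 proteins, bind the activating receptor CD28 and the inhibitory receptor CTLA-4. ICOSL binds ICOS, and 4-1BBL, the product of Tnfsf9, binds 4-1BB on activated T cells. CD40 is a receptor of the tumour necrosis factor receptor family on the presenting cell, where CD40 ligand from helper T cells engages it. PD-L1, encoded by Cd274, and PD-L2, encoded by Pdcd1lg2, bind PD-1 and restrain the T cell. Resting macrophages carry little of most of these proteins, and microbial products are known to raise several of them.

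Library totals ran from 17822041 to 21694922 counts. Between 23416 and 25081 genes had at least 1 count in libraries with DSF, against 19779 to 20324 in libraries without it. The first principal component, which held 73.9% of the variance, separated libraries with DSF from those without, and none of the pairs of libraries agreed within sampling noise. All 9 macrophage markers passed the filter on low counts, and their summed level was 2305 to 2386 CPM (counts scaled to a common library total) with DSF+LPS, 2828 to 2915 CPM with LPS, 2135 to 2265 CPM with DSF and 2629 to 2687 CPM in controls. Of the 7 markers of T and NK cells, Cd3e, Cd3g and Cd8a were at 0 counts in every library, and the summed level of the list did not exceed 1.12 CPM. The 8 dendritic cell markers summed to 5.60 to 5.99 CPM with DSF+LPS, 3.03 to 3.61 CPM with LPS, 5.42 to 6.41 CPM with DSF and 3.03 to 4.44 CPM in controls. The 5 B cell markers summed to 2.50 to 4.90 CPM with DSF+LPS, 0.515 to 0.616 CPM with LPS, 2.44 to 2.94 CPM with DSF and 0.189 to 0.449 CPM in controls. Their part in the results on the drug was not tested. As a check of the LPS labels, Tnf, which encodes the cytokine TNF, had 202 and 259 CPM with DSF+LPS, 833 and 850 CPM with LPS, 46.3 and 54.6 CPM with DSF and 37.0 and 38.1 CPM in controls. Ly96 had 8.02 and 6.99 CPM with DSF+LPS, 2.55 and 3.25 CPM with LPS, 8.06 and 8.11 CPM with DSF and 2.95 and 2.40 CPM in controls. In such bulk libraries, fewer cells that express a gene and less of its RNA per cell cannot be told apart.

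Levels between genes were compared per kilobase of exon, since a longer transcript yields more reads. With DSF+LPS, Cd40 stood highest at 39.3 ± 4.71 CPM per kilobase (SD, n = 2), ahead of Tnfsf9 at 27.0 ± 2.30 and Cd86 at 7.12 ± 0.244 CPM per kilobase. Cd80 at 4.68 ± 0.910, Icosl at 3.58 ± 0.388 and Cd274 at 3.18 ± 0.104 CPM per kilobase followed, in that order in both libraries. In LPS cells Cd40 also led, at 67.0 ± 4.40 CPM per kilobase, with Tnfsf9 at 31.3 ± 0.447 after it, but Icosl came next at 12.5 ± 0.465 CPM per kilobase. Cd86 at 9.92 ± 0.514 and Cd80 at 9.41 ± 0.859 CPM per kilobase had LPS libraries that overlapped, and Cd274 at 8.25 ± 0.297 CPM per kilobase stood below both. Icosl thus ranked above both B7 genes with LPS and below both in the other 3 groups. In DSF cells the libraries of Tnfsf9 and Cd40 overlapped, at 21.3 ± 1.39 and 21.1 ± 1.73 CPM per kilobase, and both stood above Cd86 at 8.57 ± 0.602 CPM per kilobase. In control cells Tnfsf9 led at 19.3 ± 0.265 CPM per kilobase, and Cd86 at 7.89 ± 1.05 and Cd40 at 5.65 ± 0.231 CPM per kilobase came next. Cd80, Icosl and Cd274 closed the order in controls at 4.25 ± 0.414, 3.02 ± 0.104 and 2.27 ± 0.339 CPM per kilobase. The same 3 genes closed it in DSF cells, at 4.33 ± 0.363, 3.34 ± 0.118 and 2.80 ± 0.401 CPM per kilobase. Pdcd1lg2 had the lowest level per kilobase in every library.

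**Figure D1:**
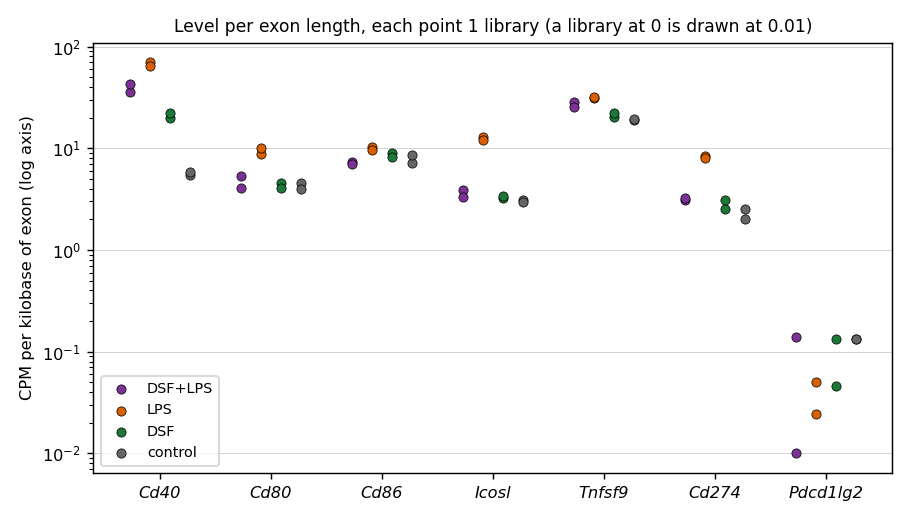
Level of each gene per exon length (CPM per kilobase, log axis), with 1 point for each library and a colour for each of the 4 groups; a library with 0 counts is drawn at 0.01. Cd40 spans the widest range of the 6 genes with appreciable counts, with an average of 67.0 CPM per kilobase in LPS cells against 5.65 in controls, and Pdcd1lg2 lies far below the others.

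Promoter sequences are shown for the 4 of the 7 genes that had an entry in the RefSeq table on GRCm38.p6, an older build than that of the counts. They let the windows of Cd80, Cd274 and Icosl, which rose with LPS in the comparisons below, be read beside that of Pdcd1lg2, the neighbour of Cd274 that stayed near 0. Each is the 250 bases before the annotated start of transcription. All lie on the plus strand: Cd80 at chr16:38458683-38458932, Cd274 at chr19:29367188-29367437, Icosl at chr10:78069118-78069367 and Pdcd1lg2 at chr19:29410669-29410918. Capitals mark matches to the motifs named after the sequences, which are written 5′ to 3′.
Cd80: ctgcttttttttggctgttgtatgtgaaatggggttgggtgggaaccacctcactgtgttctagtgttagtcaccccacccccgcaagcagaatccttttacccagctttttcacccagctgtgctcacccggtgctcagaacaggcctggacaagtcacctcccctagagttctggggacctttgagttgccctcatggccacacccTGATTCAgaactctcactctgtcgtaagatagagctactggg
Cd274: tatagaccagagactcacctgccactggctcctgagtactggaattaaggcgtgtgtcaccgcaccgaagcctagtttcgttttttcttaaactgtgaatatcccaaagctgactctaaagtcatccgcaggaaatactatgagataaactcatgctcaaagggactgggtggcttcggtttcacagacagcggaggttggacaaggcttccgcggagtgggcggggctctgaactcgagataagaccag
Icosl: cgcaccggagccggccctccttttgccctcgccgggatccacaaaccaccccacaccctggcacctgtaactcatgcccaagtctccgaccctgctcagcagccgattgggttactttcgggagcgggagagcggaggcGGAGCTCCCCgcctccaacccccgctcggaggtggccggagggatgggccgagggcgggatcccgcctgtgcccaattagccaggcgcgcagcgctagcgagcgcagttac
Pdcd1lg2: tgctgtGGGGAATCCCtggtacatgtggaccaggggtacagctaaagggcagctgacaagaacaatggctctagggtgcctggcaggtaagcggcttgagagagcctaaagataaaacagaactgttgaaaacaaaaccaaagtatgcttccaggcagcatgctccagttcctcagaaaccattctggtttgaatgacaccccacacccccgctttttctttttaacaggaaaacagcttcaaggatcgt
In all, 7 motifs were searched on both strands: the kappaB consensus bound by NF-kappaB, the core of the interferon-stimulated response element, the STAT element TTCNNNGAA, the AP-1 element TGANTCA, the heat shock element pair GAANNTTC, the antioxidant response core TGACNNNGC and TATAAA. Icosl held a kappaB match 111 to 102 bases upstream of the start, on the minus strand, and Pdcd1lg2 held one 244 to 235 bases upstream that reads as a match on both strands. Among 32851 promoter windows of the same length, 7.25% held a kappaB match. Cd80 held an AP-1 match 42 to 36 bases upstream, likewise on both strands, as did 6.75% of the windows. The Cd274 window held no match to any of the 7. The remaining shares were 2.98% for the interferon element, 7.02% for the STAT element, 6.69% for the heat shock pair, 10.2% for the antioxidant core and 12.4% for TATAAA. A match is a string of letters and not a measured binding site.

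LPS alone raised all 6 of the genes that could be tested, most of all Cd40. The comparison of LPS with control cells asks what TLR4 stimulation does without the drug. Across all 16304 genes tested, 15.2% rose, 13.8% fell and 29.0% changed in either direction at an adjusted p under 0.05 (edgeR's quasi-likelihood test with Benjamini-Hochberg adjustment). The median log2 fold change of the 6 genes was 1.51, beside 0.02 over all genes tested. Of the 9 macrophage markers 5 were also higher with LPS and none lower, a median of 0.37, with Spi1 and Adgre1 at 0.92 each; 1 or 2 were lower with library size alone (median 0.212), without the filter, with only the compared groups or without either DSF+LPS library. The part of that shift in the smaller changes, those of Cd86 and Tnfsf9, was not tested.

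Cd40 had 239 and 218 CPM in LPS cells, against 18.7 and 19.8 CPM in control cells. Both LPS libraries were far above both controls, a log2 fold change of 3.57 (SE 0.11, adjusted p = 2.39e-12), or 11.8-fold with a 95% interval of 10.1 to 13.9. Of the B7 pair, Cd80 had 32.6 and 37.1 CPM in LPS cells, against 16.8 and 14.6 CPM in controls. The groups did not overlap, and the log2 fold change was 1.15 (SE 0.14, adjusted p = 1.45e-05). Cd86 had 37.7 and 35.0 CPM in LPS cells, against 26.2 and 31.6 CPM in controls. Its rise was the smallest of the 6, with a log2 fold change of 0.33 (SE 0.11, adjusted p = 0.0371). The Cd86 call was lost in 8 of 15 alternatives. The value was 0.20 (adjusted p = 0.358) without control replicate 1 and 0.17 with library size alone as the scaling, and without either LPS library, without either DSF library, without the filter or in DESeq2 the adjusted p was 0.0516 to 0.229.

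Icosl, the ligand of ICOS, had 59.3 and 56.2 CPM in LPS cells, against 14.3 and 13.6 CPM in controls. That was a 4.14-fold difference (95% interval 3.52 to 4.88, adjusted p = 1.67e-09), with replicates close together in both groups. Cd274, which encodes PD-L1, had 30.6 and 29.1 CPM in LPS cells, against 9.11 and 7.37 CPM in controls. Its log2 fold change was 1.86 (SE 0.14, adjusted p = 1.06e-07), so the inhibitory ligand rose along with the activating ones. Tnfsf9, which encodes 4-1BBL, had 39.9 and 40.7 CPM in LPS cells, against 24.6 and 25.1 CPM in controls, a log2 fold change of 0.70 (SE 0.10, adjusted p = 7.90e-05).

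**Figure D2:**
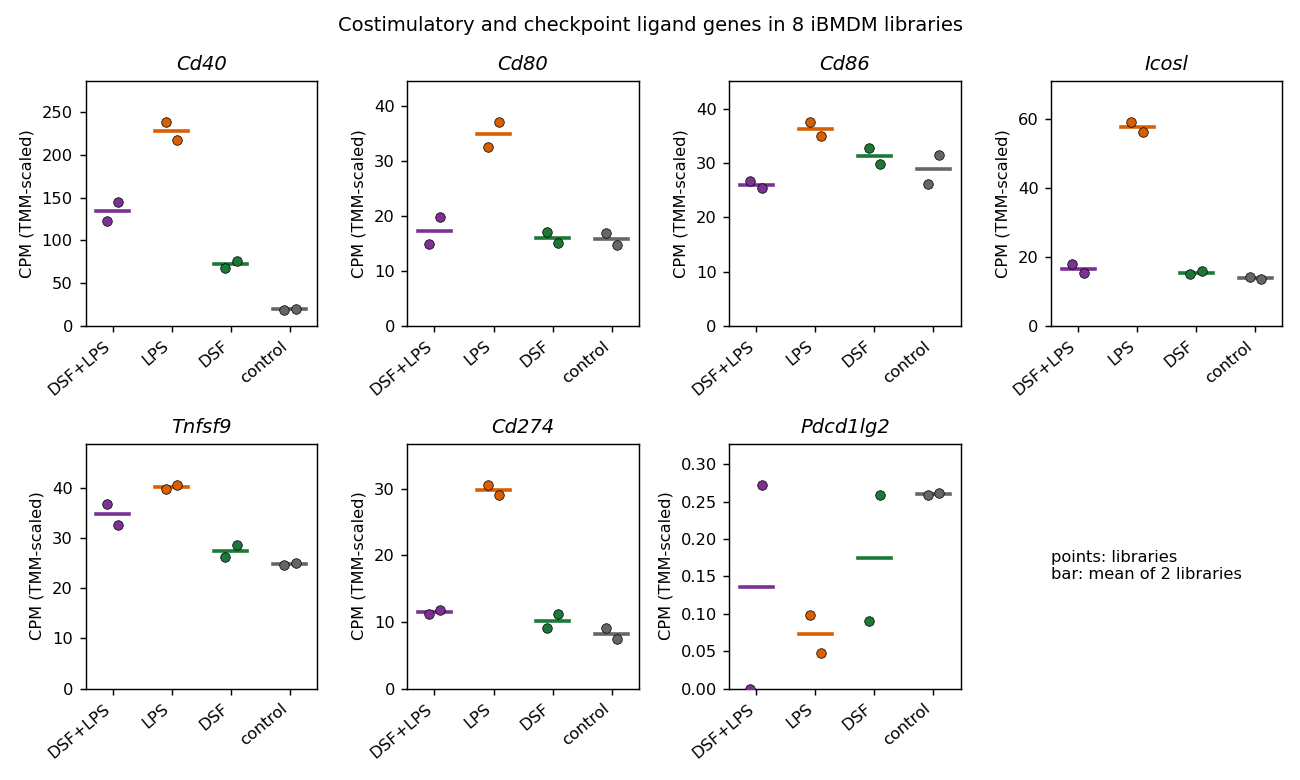
TMM-scaled CPM of the 7 genes, 1 panel for each gene with its own axis that starts at 0, and 1 point for each library in the order DSF+LPS, LPS, DSF and control. For Cd40, Cd80, Cd86, Icosl and Cd274 both LPS libraries lie above both DSF+LPS libraries and both controls; Cd40 alone of these has DSF libraries (67.8 and 76.1 CPM) well above its controls (18.7 and 19.8 CPM).

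In cells given DSF before LPS, 5 of the 6 tested genes were lower than in cells given LPS alone: Cd40, Cd80, Cd86, Icosl and Cd274. This comparison addresses the stated question of the study. Of all genes tested, 31.6% fell, 33.7% rose and 65.3% changed in either direction, so a change as such was common. The median log2 fold change of the 6 genes was -0.89, against 0.04 over all genes tested. Both this comparison and that of LPS with control use the same LPS libraries, so their values are given side by side and not related to each other.

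Icosl had the deepest fall. Its libraries had 17.8 and 15.3 CPM with DSF+LPS, against 59.3 and 56.2 CPM with LPS, a level of 28.7% of that in LPS cells (log2 fold change -1.80, SE 0.11, adjusted p = 2.76e-09). Cd274 had 11.3 and 11.8 CPM with DSF+LPS, against 30.6 and 29.1 CPM with LPS. It fell to 38.6% of the LPS level (log2 fold change -1.37, SE 0.14, adjusted p = 7.40e-07). Cd80 had 14.9 and 19.7 CPM with DSF+LPS, against 32.6 and 37.1 CPM with LPS, and the log2 fold change was -1.01 (SE 0.14, adjusted p = 1.76e-05).

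Cd40 had 123 and 145 CPM with DSF+LPS, against 239 and 218 CPM with LPS. Although this was a fall to 58.7% of the LPS level (log2 fold change -0.77, SE 0.09, adjusted p = 3.82e-06), Cd40 remained well above its level in both groups without LPS. Cd86 had 26.7 and 25.4 CPM with DSF+LPS, against 37.7 and 35.0 CPM with LPS (log2 fold change -0.48, SE 0.11, adjusted p = 0.00170). Tnfsf9 had 36.9 and 32.7 CPM with DSF+LPS, against 39.9 and 40.7 CPM with LPS. Both DSF+LPS libraries of Tnfsf9 were lower, but its log2 fold change of -0.21 (SE 0.10, adjusted p = 0.0732) did not pass the threshold. It passed with library size alone (-0.26, adjusted p = 0.0322) and without DSF+LPS replicate 1 (-0.32, adjusted p = 0.0209).

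Macrophage markers moved in the same comparison, in both directions. Of 9 markers, 6 fell and 2 rose (1 in DESeq2), beside 31.6% and 33.7% of all genes. The median log2 fold change was -0.59, beside 0.04 over all genes tested. Those that fell ran between Fcgr1, an Fc receptor (-2.36, adjusted p = 1.67e-10), and Adgre1, the antigen F4/80 (-0.57). Cd68, the most abundant marker with DSF+LPS, rose to 881 CPM with DSF+LPS, against 536 CPM with LPS (0.72). Mertk rose as well (1.25), at low levels of 1.84 CPM with DSF+LPS and 0.772 CPM with LPS. Lyz2, which encodes lysozyme, had 574 and 568 CPM on average in DSF+LPS and LPS cells. The part of these shifts in the fall of the ligand genes was not tested.

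Within DSF-treated cells, LPS raised only Cd40 and Tnfsf9 past the threshold among the 6 genes. Of all genes tested, 5.53% rose, 6.53% fell and 12.1% changed in either direction in DSF+LPS against DSF cells. Cd40 had 123 and 145 CPM with DSF+LPS, against 67.8 and 76.1 CPM with DSF, a 1.86-fold difference (95% interval 1.62 to 2.14, adjusted p = 3.35e-05). Tnfsf9 had 36.9 and 32.7 CPM with DSF+LPS, against 26.2 and 28.7 CPM with DSF, a log2 fold change of 0.34 (SE 0.10, adjusted p = 0.0402). The call of Tnfsf9 was near the threshold and was lost in 9 of 15 alternative settings, with an adjusted p of up to 0.305; it was lost without any 1 library other than DSF+LPS replicate 2.

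For the other 4 genes the difference between DSF+LPS and DSF cells was small or not resolved. The fold was 1.08 for Cd80 (95% interval 0.868 to 1.34), 1.14 for Cd274 (0.914 to 1.42) and 1.07 for Icosl (0.906 to 1.28). Cd86 had 26.7 and 25.4 CPM with DSF+LPS, against 32.9 and 29.8 CPM with DSF, a fold of 0.831 (0.703 to 0.982, adjusted p = 0.144). Cd86 was called lower with library size alone (log2 fold change -0.37, adjusted p = 0.0387). The adjusted p was 0.701 for Cd80, 0.461 for Cd274 and 0.625 for Icosl.

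The LPS response with DSF was then set against the LPS response without it, in 1 test of the difference (an interaction term). The response was smaller with DSF for Cd40, Cd80, Cd86, Cd274 and Icosl. Over all genes tested, 12.2% had a lower response, 7.58% a higher one and 19.7% either. The median interaction of the 6 genes was -1.36 on the log2 scale, beside -0.02 over all genes. No library serves in both responses.

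Cd40 had a response of 0.90 with DSF and 3.57 without it on the log2 scale, a difference of -2.67 (SE 0.14, adjusted p = 5.57e-09). Its level without LPS entered this difference: Cd40 was higher with DSF than in controls (log2 fold change 1.90). With DSF+LPS it was lower than with LPS by a smaller amount (-0.77). Icosl responded by 0.10 with DSF and 2.05 without it, a difference of -1.95 (SE 0.16, adjusted p = 6.56e-07). For Cd274 the responses were 0.19 with DSF and 1.86 without it, a difference of -1.67 (SE 0.21, adjusted p = 3.94e-05). Cd80 differed by -1.04 (SE 0.20, adjusted p = 0.00193) and Cd86 by -0.60 (SE 0.16, adjusted p = 0.0155). The Cd86 difference was lost without control replicate 1 (-0.47), DSF replicate 1 (-0.49) or LPS replicate 1 (-0.54). Tnfsf9 differed by -0.35 (SE 0.14, adjusted p = 0.102), which passed the threshold only without DSF+LPS replicate 1 (-0.43, adjusted p = 0.0417) among the alternatives run.

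On the scale of CPM, LPS added 62.0 CPM of Cd40 with DSF and 209 CPM without it, so 29.7% of the added amount was present with the drug. For Tnfsf9 the added amount was 7.35 CPM with DSF and 15.5 CPM without it, or 47.5%. Icosl gained 1.13 CPM with DSF and 43.8 CPM without it, Cd274 gained 1.39 and 21.6 CPM, and Cd80 gained 1.29 and 19.1 CPM, in that order. Cd86 went the other way with the drug, with a difference of -5.30 CPM with DSF and 7.44 CPM without it. These are differences of group means and carry no test of their own.

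**Figure D3:**
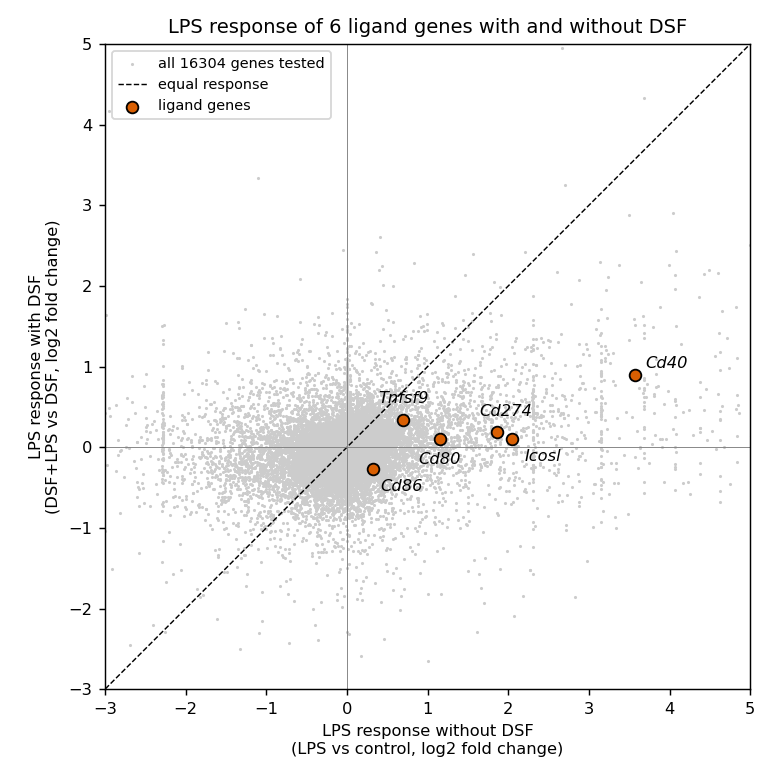
Log2 fold change of DSF+LPS against DSF cells (vertical axis) plotted against that of LPS against control cells (horizontal axis), with 1 grey point for each gene tested and the 6 ligand genes labelled; the dashed line marks an equal response, and 224 genes outside the axes are not drawn. All 6 genes lie below the line: Icosl, Cd274 and Cd80 are close to 0 on the vertical axis (0.10, 0.19 and 0.11), and Cd40 keeps a response of 0.90.

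DSF without LPS raised Cd40 and no other of the 6 genes past the threshold. Of all genes tested, 31.0% rose, 27.1% fell and 58.1% changed in either direction in DSF against control cells. Cd40 had 67.8 and 76.1 CPM in DSF cells, against 18.7 and 19.8 CPM in controls. That was 3.73-fold (95% interval 3.20 to 4.36, adjusted p = 1.57e-09), with no overlap. Cd40 was thus higher with DSF than in controls, and lower with DSF+LPS than with LPS.

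The remaining genes differed little between DSF and control cells. Cd274 had 9.10 and 11.2 CPM in DSF cells, against 9.11 and 7.37 CPM in controls (fold 1.23, 95% interval 0.982 to 1.54, adjusted p = 0.106). Icosl had 15.0 and 15.8 CPM in DSF cells, against 14.3 and 13.6 CPM in controls (fold 1.11, interval 0.931 to 1.31). The fold was 1.10 for Tnfsf9 (0.947 to 1.28), 1.08 for Cd86 (0.919 to 1.28) and 1.02 for Cd80 (0.823 to 1.27), with libraries of the last pair overlapping. The intervals leave room for changes of modest size in either direction, so the level of these 5 genes is not shown to be equal.

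**Figure D4:**
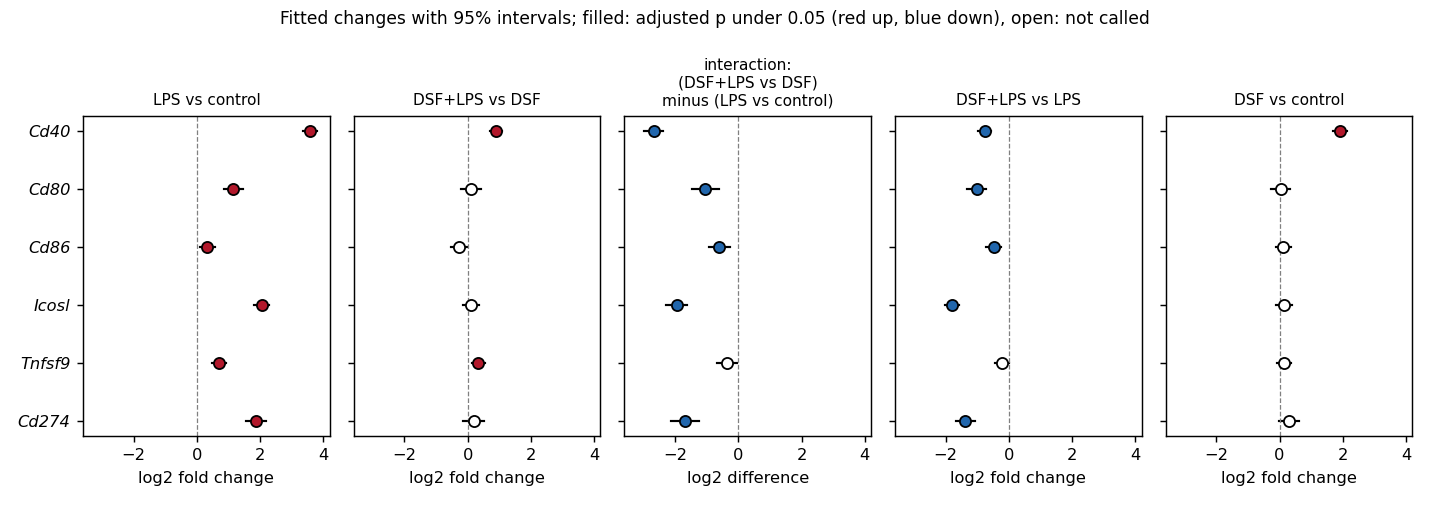
Fitted log2 changes of the 6 tested genes with 95% intervals in LPS against control, DSF+LPS against DSF, the difference of these responses (interaction), DSF+LPS against LPS, and DSF against control; filled points passed an adjusted p under 0.05 (red higher, blue lower) and open points did not. All 6 points are filled for LPS against control, and only Cd40 (1.90) is filled for DSF against control.

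Pdcd1lg2, the gene of PD-L2, was barely detected. It had 0 and 5 counts with DSF+LPS, 2 and 1 with LPS, 2 and 5 with DSF and 5 and 6 in controls, and it did not pass the filter. Over the 2 libraries of a group this is 0.131 CPM with DSF+LPS (exact 95% Poisson interval 0.0426 to 0.306), 0.0727 with LPS (0.0150 to 0.212), 0.169 with DSF (0.0679 to 0.348) and 0.260 in controls (0.130 to 0.466). These intervals overlap and cover counting error only. Fitted without the filter, Pdcd1lg2 was called in no comparison, with adjusted p between 0.552 and 0.971 in edgeR's quasi-likelihood test. No difference was detectable at this depth.

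Pdcd1lg2 lies beside Cd274 in the RefSeq gene order, with Plgrkt on the other side of Cd274 and Ric1 beyond Pdcd1lg2. Plgrkt, which encodes a plasminogen receptor, had 18.4 ± 0.684 CPM with DSF+LPS, 22.1 ± 0.852 with LPS, 19.7 ± 0.571 with DSF and 19.0 ± 1.35 in controls (SD, n = 2 each). Ric1, which encodes a regulator of vesicle transport, had 34.2 ± 1.26 CPM with DSF+LPS, 32.0 ± 2.10 with LPS, 35.9 ± 1.43 with DSF and 37.8 ± 1.48 in controls. Neither passed the threshold in any of the 5 comparisons, whereas Cd274 did in 3 of them. Tnfsf9 lies between Cd70, the ligand of CD27, which had at most 3 counts in a group, and Tubb4a, which encodes a beta tubulin. Tubb4a was higher in DSF than in control cells (log2 fold change 0.95, adjusted p = 0.00886) and higher with DSF+LPS than with LPS (1.14, adjusted p = 0.00184), where Tnfsf9 was not called.

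The balance between the ligands also differed between groups. Per kilobase, the ratio of Cd80 to Cd86 was 0.553 and 0.766 with DSF+LPS, against 0.856 and 1.05 with LPS. In DSF cells it was 0.510 and 0.500, against 0.635 and 0.458 in controls, so both LPS libraries were above all 6 others. The ratio of Cd274 to Cd86 was 0.426 and 0.469 with DSF+LPS, against 0.822 and 0.841 with LPS. It was 0.279 and 0.378 in DSF cells, against 0.352 and 0.236 in controls. The ratio of Icosl to Cd86 was 0.529 and 0.476 with DSF+LPS, against 1.25 and 1.27 with LPS. With 2 libraries a group these ratios are descriptions and were not tested.

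Among themselves the genes followed different patterns over the 8 libraries. As a measure of likeness, the root mean square difference of log2 CPM, each gene centred on its own mean, was smallest between Cd274 and Icosl (0.196) and largest between Cd40 and Cd86 (1.27). Cd40 differed by at least 0.86 from each of the others. Over 10083 genes of sufficient level, those nearest to Cd274 were Plek (0.161), St3gal3 (0.161) and Jak2 (0.164). Nearest to Icosl were Trafd1 (0.0923), Clec5a (0.152) and Tnfaip2 (0.156), and nearest to Cd40 were Plaur (0.239), Cd14 (0.301) and Pim1 (0.336). Cd80 was nearest to Fbxw17 (0.110), Sowahc (0.124) and Cd44 (0.131). For Cd86 these were Cr1l (0.0644), Zfp950 (0.0647) and Nsd3 (0.0652), and for Tnfsf9 Bst2 (0.0716), Tbc1d1 (0.0758) and Fam72a (0.0927). A gene that changes little has many near neighbours by this measure, so the values of Cd86 and Tnfsf9 are not to be set against that of Cd40.

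Other ligands of T cells and NK cells did not follow one direction. Of 20 such genes 13 were tested. Among these, Tnfsf18 averaged 0.242 CPM with LPS against 1.25 CPM with DSF+LPS. Tnfrsf14 averaged 0.241 CPM with DSF+LPS against 3.97 CPM with LPS, so both were near the floor on the lower side. Tnfsf18 passed the filter only through the groups with DSF, and Tnfrsf14 only through the groups without it. The counts and medians of this list are to be read with that limit. With DSF+LPS 4 of the 13 were higher and 8 lower than with LPS, beside 33.7% and 31.6% of all genes. The median log2 fold change was -0.90, but -0.53 to -0.275 without either control library, either DSF library or LPS replicate 2, and 0.16 in DESeq2 and 0.15 without the filter, where more genes were tested. With LPS alone, 5 were higher and 4 lower than in controls, beside 15.2% and 13.8% of all genes, and 2 were lower without LPS replicate 2. The median with LPS was 0.28, but 0.0255 to 0.149 without control replicate 2 or either LPS library, 0.128 with library size alone and 0 in DESeq2 and without the filter. Icam1, which encodes the adhesion ligand of the integrin LFA-1, had 195 and 191 CPM with DSF+LPS, against 577 and 557 CPM with LPS (log2 fold change -1.55, adjusted p = 1.52e-10). Vsir, the checkpoint ligand VISTA, went the other way with LPS: 3.93 and 5.07 CPM in LPS cells, against 29.8 and 31.3 CPM in controls (log2 fold change -2.76, adjusted p = 2.10e-09). Pvr, a ligand of the receptors TIGIT and CD226, was higher with the drug. It had 196 and 226 CPM with DSF+LPS, against 82.6 and 79.1 CPM with LPS (log2 fold change 1.38, adjusted p = 4.39e-09). Cd276, the B7 homologue B7-H3, had 52.6 and 54.5 CPM in DSF cells, against 132 and 137 CPM in controls (log2 fold change -1.33, adjusted p = 1.16e-08).

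Receptors for these ligands, and CD40 ligand, are mostly genes of T cells, and 5 of 14 were tested. Pdcd1, Cd40lg and Cd226 had 0 counts in all 8 libraries. Cd28, the receptor of CD80 and CD86, was an exception: 87.6 and 88.0 CPM with DSF+LPS, 48.8 and 47.6 CPM with LPS, 148 and 129 CPM with DSF and 179 and 186 CPM in controls. Cd28 thus ran counter to its ligand Cd80 in the comparisons that use the LPS libraries. It fell with LPS (log2 fold change -1.92, adjusted p = 1.32e-10) and was higher with DSF+LPS than with LPS (0.87, adjusted p = 3.80e-07). Cd28 was also lower with DSF than in controls (-0.40) and with DSF+LPS than with DSF (-0.66), where Cd80 was not called. Tnfrsf9, which encodes 4-1BB, the receptor of the Tnfsf9 product, had 15.6 and 15.8 CPM with DSF+LPS, against 6.83 and 5.69 CPM with LPS (log2 fold change 1.33, adjusted p = 3.21e-06). Of the 5 tested receptors 3 were higher and none lower with DSF+LPS than with LPS, beside 33.7% and 31.6% of all genes, a median log2 fold change of 0.87. Havcr2, another of those higher, averaged 24.8 CPM with DSF+LPS, against 8.21 CPM with LPS (log2 fold change 1.60, adjusted p = 4.01e-07).

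**Figure D5:**
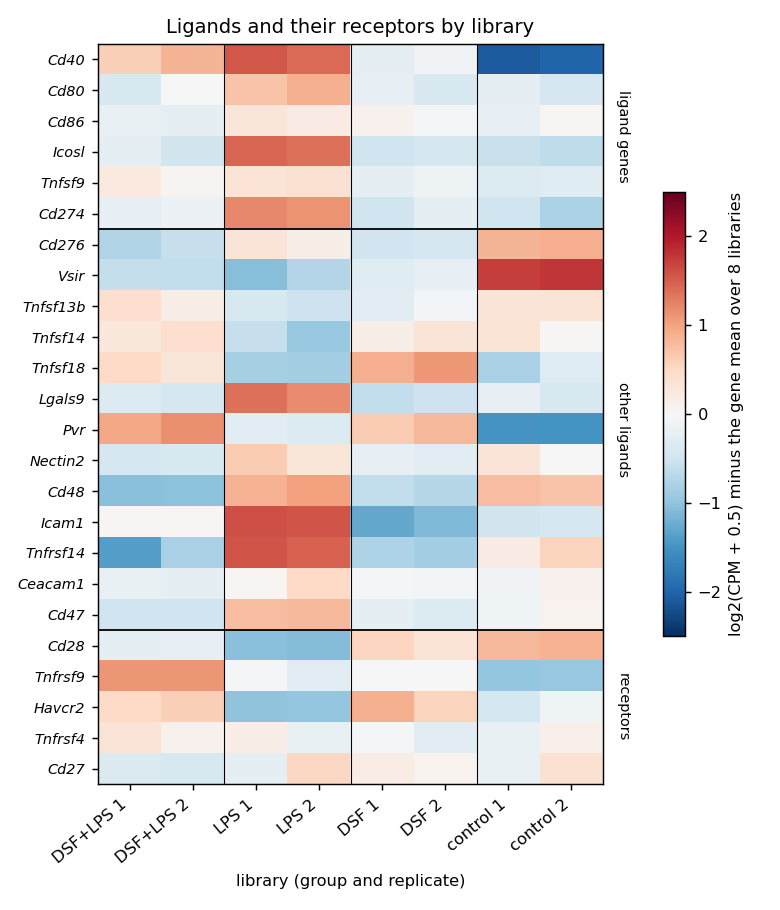
Heatmap of log2(CPM + 0.5) minus the mean of each gene over the 8 libraries, with libraries as columns (DSF+LPS, LPS, DSF, control) and genes as rows: the 6 tested ligand genes, 13 other tested ligands and 5 tested receptors. Within their own rows, Cd40, Icosl and Cd274 are reddest in the LPS columns (59.3 and 56.2 CPM for Icosl), and Cd28 is bluest there (48.8 and 47.6 CPM).

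Genes that act downstream of CD40 were measured for all 15 members of the list. With LPS 11 were higher and 1 lower than in controls, beside 15.2% and 13.8% of all genes, with a median log2 fold change of 0.40. The number higher was 7 with library size alone (2 lower, median 0.24) and 7 without LPS replicate 2, and none was lower without control replicate 2 or either LPS library. In DSF+LPS against LPS cells 5 were higher and 7 lower, beside 33.7% and 31.6% of all genes, a share near that of all genes for the rise. The median there was -0.06, and between -0.121 and -0.0216 in the alternatives. In DSF+LPS against DSF cells 7 were higher and none lower, beside 5.53% and 6.53% of all genes. Traf1, an adaptor of CD40 and related receptors, had 96.3 and 115 CPM with DSF+LPS, 184 and 168 CPM with LPS, 20.5 and 22.4 CPM with DSF and 3.26 and 2.75 CPM in controls. Like Cd40 it was highest with LPS and lowest in controls. Birc3, an E3 ligase of the same complexes, had 23.9 and 29.9 CPM with DSF+LPS, against 142 and 143 CPM with LPS (log2 fold change -2.41, adjusted p = 1.10e-10). Rela, a subunit of NF-kappaB, moved up with the drug: 197 and 185 CPM with DSF+LPS, against 104 and 102 CPM with LPS (log2 fold change 0.89, adjusted p = 1.19e-07).

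Of 16 genes known to regulate PD-L1, 15 were tested, and with DSF+LPS 12 were lower and 2 higher than with LPS, beside 31.6% and 33.7% of all genes, a median log2 fold change of -1.23 beside 0.04 over all genes. In DSF against control cells 11 were lower and 3 higher, beside 27.1% and 31.0% of all genes, although Cd274 itself was not called there. With LPS alone 9 were higher and 1 lower than in controls, beside 15.2% and 13.8% of all genes, a median of 0.74. Myc, among the genes tested, averaged 0.0517 CPM in controls, against 4.07 CPM with LPS and 2.18 CPM with DSF. It passed the filter only through the groups other than control, so the counts against controls are to be read with that limit. Hif1a, a transcription factor of the hypoxia response, had 63.9 and 62.1 CPM with DSF+LPS, against 208 and 207 CPM with LPS (log2 fold change -1.72, adjusted p = 8.11e-11). Jak2, a kinase of interferon gamma and cytokine receptors, had 26.3 and 26.7 CPM in LPS cells, against 6.57 and 7.54 CPM in controls (log2 fold change 1.91, adjusted p = 3.23e-08). Ifngr1, a chain of the interferon gamma receptor, had 7.20 and 6.35 CPM in DSF cells, against 23.6 and 19.3 CPM in controls (log2 fold change -1.66, adjusted p = 5.07e-07).

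Other genes of maturation of antigen-presenting cells were sparse in this line. Of 10 such genes 6 were tested, and 3 of them (Il12b, Ccl17 and Ccl22) passed the filter only through the LPS group, so no count or median of the list is given. Il12b, a subunit of interleukins 12 and 23, had 8.20 and 8.27 CPM in LPS cells and 0 counts in controls, which is at least 116-fold higher when 3 counts over the group are allowed. Cd69, an early activation marker, had 5.15 and 2.24 CPM with DSF+LPS, against 93.4 and 89.1 CPM with LPS (log2 fold change -4.61, adjusted p = 9.78e-10). Cd83, a maturation marker of dendritic cells, had 19.4 and 21.1 CPM with DSF+LPS, against 24.4 and 26.3 CPM with LPS (log2 fold change -0.33, adjusted p = 0.0283), a call lost in 6 of 15 alternatives with an adjusted p of up to 0.161.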

How the data were processed

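The values deposited by the authors are raw read counts, whole numbers for each gene in each of the 8 libraries. RNA was extracted with TRIzol and mRNA libraries were sequenced, per the labels' protocols. The submitters' processing notes name the build GRCm39 and DESeq2, with no role stated. Aligner, counter, annotation and strand handling were not given in the sources used here, so reads shared with overlapping or antisense genes cannot be told apart. The labels number the 2 libraries of a group without saying whether they were separate cultures, so the p-values reflect the spread of these libraries alone, which may be technical.

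The deposited counts were tested with edgeR 4.0.16 in R 4.3.3 (quasi-likelihood test, TMM scaling, filterByExpr with a minimum count of 10 and a minimum total of 15), in 1 fit of all 8 libraries with a mean for each group. The filter left 16304 genes, 6 of the 7 ligand genes among them, each of the 6 with at least 169 counts in every library. P-values were adjusted by Benjamini-Hochberg over all genes tested in each comparison; rose, fell and called mean an adjusted p under 0.05. SE is approximate, the log2 fold change over the root of its F statistic. Symbols were matched to identifiers for 52081 genes of the table and not for 3333. CPM are TMM-scaled, also in the Poisson intervals, except sums over marker lists, which use plain totals. Exon lengths are unions from GENCODE M21, which may differ from the authors' annotation.

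The ligand genes and the gene lists were chosen with earlier results of these data known. All ligand genes are named. Of each list up to 4 called genes per comparison could be named, those with the largest change, no overlap between groups and at least 5 CPM on average in the higher group, and only some of them are. Tnf and Ly96 were named as checks, and 3 genes of nearest pattern for each ligand gene. Neighbouring genes and receptors with 0 counts were named after their values were seen. The scripts were tested on simulated data. Alternatives were DESeq2 1.42.0, other scalings and filters, a fit of the compared groups alone, a replicate block, and each library left out in turn.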

Additional observations from a re-analysis of the deposited data

Results flagged for a closer look

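A difference between the LPS response with DSF and that without it, by the interaction test in edgeR, marked 5 of the 6 tested ligand genes for a closer look. The difference was -2.67 on the log2 scale for Cd40, -1.95 for Icosl, -1.67 for Cd274, -1.04 for Cd80 and -0.60 for Cd86. Over all genes tested 12.2% had a smaller or more negative response with DSF at the same threshold. No group had the 4 libraries needed to look for a single library far from the rest.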

How the results depend on the processing

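Of 30 member values (6 genes in 5 comparisons), 20 kept their direction and their side of the threshold in every one of the 15 alternatives that gave a value, as did 73 of 81 values of named list genes and markers. The number of ligand genes higher with DSF+LPS than with DSF was 1 in place of 2 with library size alone and with only the compared groups, and 1 to 2 when single libraries were left out; with library size alone 1 gene, Cd86, was lower in place of 0. Directions that reversed were all of values not called. For DSF against control, Cd80 was -0.0706 with library size alone, -0.00399 without the filter, and -0.0831 (without DSF replicate 1) to 0.121 when single libraries were left out, and Cd86 was -0.0208 (without control replicate 1) to 0.249. For DSF+LPS against DSF, Icosl was -0.00088 with library size alone and -0.0197 (without DSF+LPS replicate 1) to 0.237 when single libraries were left out, and Cd80 was -0.0761 (without DSF+LPS replicate 2) to 0.288. The cause of these moves was not tested. Cd86 lost its rise with LPS in 8 of 15 alternatives. Library size alone moved the median of all genes by -0.143 for LPS against control, -0.102 for DSF against control and -0.105 for DSF+LPS against DSF.

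Over the whole table, 4731 genes were called for LPS against control (3146 without control replicate 2), 1966 for DSF+LPS against DSF (524 with only the compared groups, 399 without DSF replicate 1) and 3217 for the interaction (2072 without control replicate 1, 2003 without LPS replicate 2). The share of calls that were upward was 52.5% for LPS against control (30.0% with library size alone) and 45.8% for DSF+LPS against DSF (17.5% with library size alone, 61.8% with only the compared groups, 62.7% without DSF replicate 1).

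With the replicate number as a block, the ligand genes called were 6 higher for LPS against control, 1 higher for DSF against control, 5 lower for DSF+LPS against LPS, 2 higher for DSF+LPS against DSF and 5 lower for the interaction, as without it, and 4734, 9421, 10596, 2129 and 3226 genes were called over the whole table in that order. Deviations of same-numbered libraries correlated at -0.119 between DSF+LPS and DSF and at 0.0365 to 0.0531 otherwise. Whether same-numbered libraries share a culture or a batch is not stated in the labels and was not settled by these values. With the DSF+LPS numbers crossed, an alternative chosen after seeing the data, 4809, 9545, 10711, 2060 and 3308 genes were called. Groups of 2 libraries limit the precision of every value, and depth limits Pdcd1lg2.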
